A study of Mus musculus with 7 samples.

Results

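Ras proteins are small GTPases that signal while bound to GTP, and 9 genes of this switch were followed in mouse brain tumours: the GTPase genes Hras, Nras and Rras, the GTPase-activating protein (GAP) genes Nf1, Rasa1, Rasa2 and Rasa3, and the guanine nucleotide exchange factor (GEF) genes Sos1 and Rasgrp1. They were chosen by name, and all 9 were among the 37620 mouse genes of each count table. GEFs load Ras with GTP and so switch it on, often on a signal from a receptor tyrosine kinase, while GAPs speed up GTP hydrolysis and switch it off. In glioblastoma this pathway is often overactive, through receptor kinases or through loss of NF1. The genes matter here because both lines were altered in the pathway, GSC1 by a Ras gene and GSC2 by loss of Nf1.

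RNA was sequenced from 4 GSC1 and 3 GSC2 tumours, which grew in the brains of nude mice after implantation of glioblastoma stem-like cells kept for 10 to 15 passages. Both lines came from neural stem cells, with the subventricular zone, a niche of such cells in the adult brain, as the labelled source. GSC1 cells were labelled with the mutations lgT and Ras, and the labels do not say which Ras gene or allele was used. GSC2 cells were labelled with shp53, a short hairpin against p53, with Nf1-/-, and with CDK4. Each set of changes was present in a single line, so every comparison is between lines and not between single mutations. Nude mice lack a thymus and so most T cells, and keep NK cells, microglia and the other cells of the brain. Log2 fold changes are GSC1 minus GSC2, and levels are CPM, read counts relative to the TMM-scaled library size.

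The coding sequences show what the 3 GTPases share and where they part. The effector region, the loop through which GTP-bound Ras touches Raf and its other partners, is shown first for Hras and Rras, with its 9 codons in capitals, as codons 26 to 46 of Hras and codons 52 to 72 of Rras (mouse GRCm38 transcripts of GENCODE M21, 5′ to 3′, sense strand; Hras and Rras on chromosome 7, Nras on chromosome 3).
Hras: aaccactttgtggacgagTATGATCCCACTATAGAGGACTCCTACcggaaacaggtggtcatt
Rras: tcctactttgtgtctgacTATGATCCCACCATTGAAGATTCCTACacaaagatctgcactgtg

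All 9 capital codons encode the same residues in Hras and Rras, with 23 of 27 bases identical. Over the first 164 codons of Hras, Hras and Nras had 79.1% of bases in common, and Hras and Rras 53.3%. Rras was aligned at the effector codons without gaps, which leaves out its first 26 codons. The longest run of identical coding bases was 23 between Hras and Nras and 13 between Hras and Rras. The last 20 codons are the variable tail, shown for the 3 genes with the final 4 codons in capitals. Those 4 codons encode the CAAX box, the signal to which a lipid is attached so that the protein reaches the membrane.
Hras: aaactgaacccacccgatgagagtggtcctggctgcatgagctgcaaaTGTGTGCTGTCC
Nras: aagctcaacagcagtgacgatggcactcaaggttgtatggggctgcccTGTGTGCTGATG
Rras: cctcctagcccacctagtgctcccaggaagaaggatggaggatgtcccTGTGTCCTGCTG

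In this tail 51.7% of the bases were the same in Hras and Nras and 36.7% in Hras and Rras. These are reference sequences. The count tables give gene totals only, so they show neither a Ras mutation, nor a deleted exon of Nf1, nor a transgene from another species.

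Libraries held 18643155 to 32643408 reads on genes. Markers of neural stem cells and glioma were present in every tumour, with Sox2 between 70.8 and 199 CPM, and so were markers of normal brain. A brain score, the mean of the average log2 CPM of 10 neuron genes and that of 9 mature oligodendrocyte genes, ran from 4.98 in GSC1 replicate 2 to 8.63 in GSC1 replicate 3. It was 6.34 and 8.07 in the other GSC1 tumours, replicates 1 and 4, against 6.37, 7.88 and 7.77 in the GSC2 tumours. None of the 9 genes is in the score. Long transcripts were under-represented in GSC1 replicates 3 and 4 and GSC2 replicate 3, where the contrast in median log2 deviation between transcripts of 8000 bases or more and transcripts of 2000 bases or less came to -0.40, -0.36 and -0.70. Tumour and host cells were sequenced together, so fewer cells of a type and less RNA per cell cannot be told apart.

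None of the 9 genes passed the test between the lines (edgeR quasi-likelihood test, Benjamini-Hochberg adjusted p under 0.05 over 16068 genes, of which 0% were called). At an unadjusted p under 0.05 Rasgrp1 alone was found, 1 of 9, where 4.21% of all genes were. Rras alone had values that did not overlap between the lines, again 1 of 9, where 5.58% of all genes had none, 2.53% with GSC1 higher, as for Rras, and 3.05% with GSC1 lower. The median log2 fold change of the 9 was -0.04, against 0.03 over all genes tested, and the median size without sign was 0.05 against 0.23. Of the 9 folds, 3 were positive and 6 negative.

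**Figure D1:**
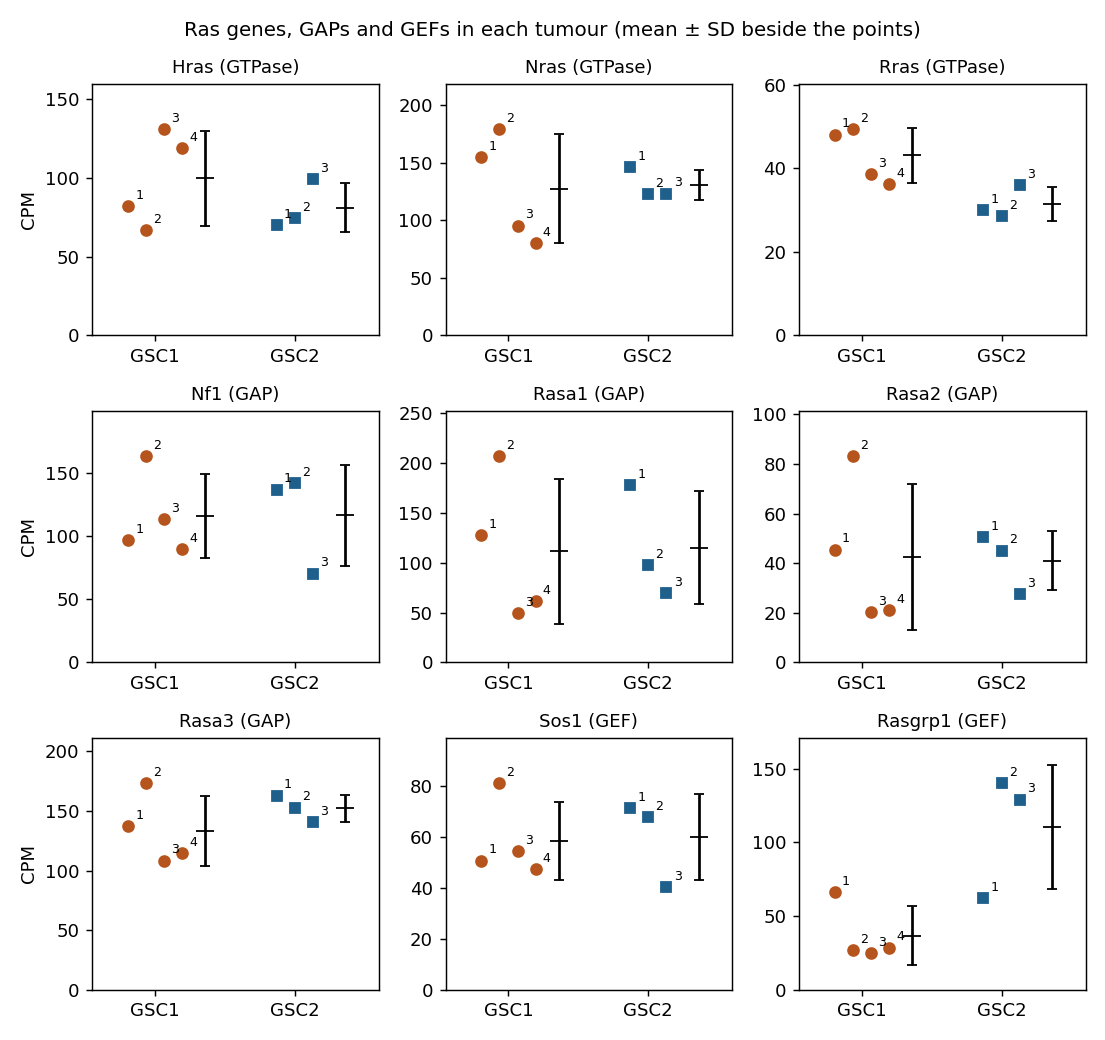
CPM (y axis, linear from 0) of each gene in the 4 GSC1 tumours (circles, left) and the 3 GSC2 tumours (squares, right), numbered by replicate, with mean ± SD as black bars. Only the Rras values do not overlap between the lines, and Rasgrp1 is highest in GSC2 replicates 2 and 3, at 140 and 129 CPM.

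Nf1 encodes neurofibromin, a Ras GAP and the tumour suppressor named in the GSC2 label. It had 96.5, 163, 113 and 89.7 CPM in GSC1 replicates 1 to 4, against 137, 142 and 70.3 CPM in GSC2 replicates 1 to 3. GSC2 replicates 1 and 2 lay within the GSC1 range, and GSC2 replicate 3 was the lowest of all. The Nf1 transcript, at 11917 bases, is the longest of the 9, and long transcripts were scarcest in GSC2 replicate 3 (contrast -0.70). The part of the length trend in that low value was not tested. The fold was 0.994 (log2 fold change -0.01, SE 0.33), with a 95% confidence interval from 0.579 to 1.71. The direction is not settled, since the log2 fold change was 0.03 with RLE factors and 0.22 with a length offset. The gene total does not check the Nf1-/- label, since a transcript that lacks an exon still gives reads and host cells carry Nf1. The genes Omg, Evi2 and Evi2a lie inside Nf1 on the opposite strand, and their annotated exons do not overlap those of Nf1.

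Hras had 82.2, 66.6, 131 and 119 CPM in GSC1 replicates 1 to 4, against 69.7, 74.5 and 99.1 CPM in GSC2 replicates 1 to 3. GSC1 replicates 3 and 4 were above every GSC2 tumour, and GSC1 replicate 2 was the lowest of all. The fold was 1.23 with a 95% confidence interval from 0.760 to 1.99 (log2 fold change 0.30, SE 0.30, edgeR adjusted p = 1.00).

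Nras, the member closest to Hras in sequence, had 155, 179, 95.4 and 79.9 CPM in the GSC1 tumours, against 146, 123 and 123 CPM in the GSC2 tumours. GSC1 replicates 1 and 2 were above all GSC2 tumours and GSC1 replicates 3 and 4 below all of them, the reverse of the pattern of Hras in replicates 2 to 4. The fold was 0.974, with a 95% confidence interval from 0.580 to 1.64.

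The ratio of Hras to Nras reads was 0.531, 0.371, 1.37 and 1.49 in GSC1 replicates 1 to 4, against 0.477, 0.606 and 0.804 in GSC2 replicates 1 to 3. Hras exceeded Nras in reads only in GSC1 replicates 3 and 4. The GSC1 ratios lay on both sides of all 3 GSC2 ratios.

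Rras encodes R-Ras, a relative of the classical Ras proteins known for its effects on integrin adhesion and the vasculature. It had 48.1, 49.4, 38.6 and 36.3 CPM in GSC1 replicates 1 to 4, against 30.0, 28.5 and 36.1 CPM in GSC2 replicates 1 to 3. All GSC1 values were above all GSC2 values, but the lowest GSC1 and highest GSC2 tumours were almost level. The means were 43.1 ± 6.63 CPM in GSC1 (SD, n = 4) and 31.5 ± 4.04 CPM in GSC2 (SD, n = 3). The fold was 1.37 with a 95% confidence interval from 0.957 to 1.96 (log2 fold change 0.45, SE 0.22, edgeR unadjusted p = 0.0774, adjusted p = 1.00).

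Rasa1 encodes p120 RasGAP, which binds phosphorylated receptors through its SH2 domains. It had 127, 207, 49.6 and 61.2 CPM in GSC1 replicates 1 to 4, against 178, 97.6 and 69.2 CPM in GSC2 replicates 1 to 3. The spread over the 7 tumours was 4.17-fold, with both the lowest and the highest tumour in GSC1. The fold was 0.968, with a 95% confidence interval from 0.389 to 2.41. Annotated exons of Rasa1 overlap those of Ccnh on the other strand, and the strand setting of the counting is not given, so its total is uncertain to that extent. Ccnh lay between 32.3 and 45.1 CPM over the 7 tumours.

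Rasa2, a GAP of the GAP1 family, had 45.5, 83.1, 20.4 and 21.1 CPM in the GSC1 tumours, against 50.4, 45.1 and 27.5 CPM in the GSC2 tumours. As for Rasa1, GSC1 replicate 2 was the highest tumour and GSC1 replicates 3 and 4 were the lowest. The fold was 1.04, with a 95% confidence interval from 0.433 to 2.48.

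Rasa3, another member of that family, which also acts on Rap1, had 137, 173, 108 and 115 CPM in the GSC1 tumours, against 163, 153 and 141 CPM in the GSC2 tumours. It had the smallest spread of the 9, 1.597-fold from the lowest to the highest tumour. The fold was 0.877, with a 95% confidence interval from 0.604 to 1.27.

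Sos1 encodes the widely expressed exchange factor that the adaptor Grb2 brings to activated receptors. It had 50.6, 80.9, 54.3 and 47.4 CPM in GSC1 replicates 1 to 4, against 71.3, 67.8 and 40.3 CPM in GSC2 replicates 1 to 3. Its highest and lowest tumours were those of Nf1, with GSC1 replicate 2 at the top and GSC2 replicate 3 at the bottom. The Sos1 transcript, at 8436 bases, is also a long one, and the part of the length trend in this likeness was not tested. The fold was 0.9748, with a 95% confidence interval from 0.602 to 1.58.

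Rasgrp1, an exchange factor activated by diacylglycerol and calcium and known from T cells and forebrain neurons, stood apart. It had 66.3, 26.9, 24.7 and 28.6 CPM in GSC1 replicates 1 to 4, against 61.9, 140 and 129 CPM in GSC2 replicates 1 to 3. GSC1 replicate 1 lay just above GSC2 replicate 1, so the lines overlapped by that pair of tumours. The mean was 36.6 ± 19.8 CPM in GSC1 (SD, n = 4) and 110.3 ± 42.2 CPM in GSC2 (SD, n = 3). The fold was 0.332 with a 95% confidence interval from 0.160 to 0.690 (log2 fold change -1.59, SE 0.45, edgeR unadjusted p = 0.00878), and it did not pass over all genes (adjusted p = 0.784). DESeq2 gave it an adjusted p of 0.103, where it called 1.19% of all genes, and limma-voom 0.779, where it called 0.00622%. The adjusted p lay between 0.103 and 1.00 over the alternatives run. Without the 3 libraries with fewer long transcripts the log2 fold change was -1.11 (SE 0.58, edgeR unadjusted p = 0.106, adjusted p = 0.428), in a fit that called 0.348% of all genes.

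**Figure D2:**
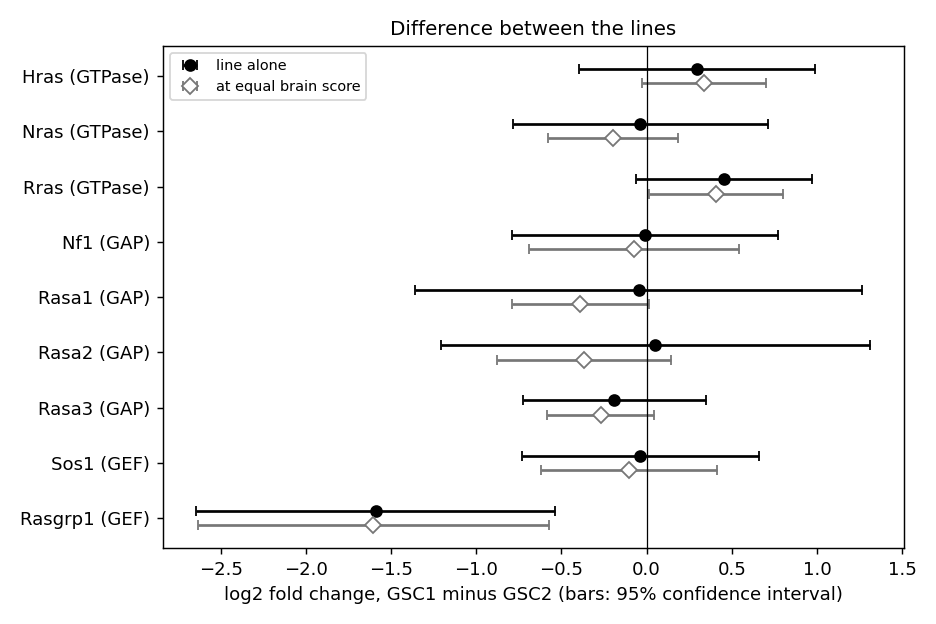
Log2 fold change, GSC1 minus GSC2 (x axis), of each gene from the fit with the line alone (filled circles) and from the fit at equal brain score (open diamonds), with 95% confidence intervals that are not adjusted for the number of genes. Rasgrp1 is lowest at -1.59, and 8 of 9 intervals of the fit with the line alone include 0.

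Genes of forebrain neurons, in which Rasgrp1 is known to be expressed, differed between the tumours. The mean log2 CPM of 6 such genes (Ddn, Camk2a, Neurod6, Tbr1, Ppp1r1b and Adora2a) was 4.94, 3.67, 2.26 and 2.63 in GSC1 replicates 1 to 4, against 5.32, 5.05 and 5.94 in GSC2 replicates 1 to 3. The 3 tumours with the least Rasgrp1 were the 3 with the lowest forebrain score, but within GSC2 the tumour with the most Rasgrp1, replicate 2, had the lowest score. None of the 6 genes was at 0 in any tumour, and they did not all run alike, since Ppp1r1b was highest in GSC1 replicate 4, at 151 CPM. In a fit with line and forebrain score, added after the values had been seen, the log2 fold change of Rasgrp1 was -0.76 (SE 0.55, 95% confidence interval -2.07 to 0.55, edgeR unadjusted p = 0.212, adjusted p = 0.655), against -1.59 with the line alone. Its slope was 0.46 log2 units per unit of score (SE 0.20, unadjusted p = 0.0561, adjusted p = 0.362), in a fit that called 0% of all genes for the score and 0% for the line. Without GSC1 replicate 1 the slope was 0.06 and the fold at equal forebrain score -1.88, and without GSC2 replicate 2 that fold was -0.21, so both values rest on these tumours. With so few tumours the line and the forebrain content cannot be told apart for this gene.

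T cell and NK cell genes were low in both lines. Cd3e was at 0 in all 4 GSC1 tumours, against 0.200 to 0.814 CPM in the GSC2 tumours. The lymphocyte genes did not all run alike, since Klrb1c overlapped between the lines and was highest in GSC1 replicate 2. It had 2.52, 6.29, 0.676 and 3 CPM in the GSC1 tumours, against 2.85, 1.61 and 0.652 CPM in the GSC2 tumours. The summed level of the 7 lymphocyte genes was between 1.55 and 9.48 CPM in GSC1 and between 6.02 and 11.4 CPM in GSC2. Their mean log2 CPM was -1.64, -1.04, -2.185 and -1.94 in GSC1 replicates 1 to 4, against 0.42, -0.08 and -0.85 in GSC2 replicates 1 to 3. On that scale the GSC2 tumours were all above the GSC1 tumours, and Rasgrp1 had its higher mean in GSC2 too. Within the lines the orders differed. GSC2 replicate 1 had the highest lymphocyte mean and the least Rasgrp1 of its line, at 61.9 CPM. GSC1 replicate 3 had the lowest lymphocyte mean and the least Rasgrp1 of its line, at 24.7 CPM. Up to 2 of the 7 lymphocyte genes were at 0 in a tumour. The part of lymphocytes in the Rasgrp1 level was not tested.

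**Figure D3:**
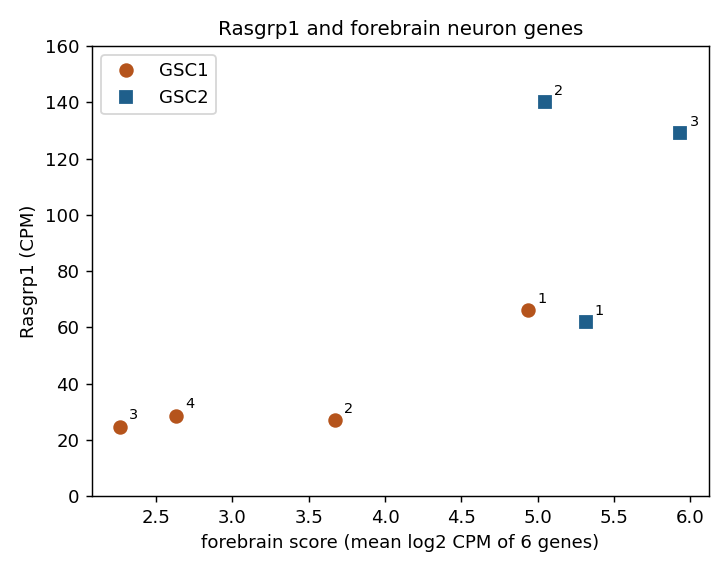
Rasgrp1 CPM (y axis, linear from 0) against the forebrain score (x axis, mean log2 CPM of 6 genes) in each GSC1 (circles) and GSC2 (squares) tumour, numbered by replicate. The 3 tumours at scores from 2.26 to 3.67 had at most 28.6 CPM, and the 4 at scores of 4.94 or more had at least 61.9 CPM.

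The tumours also differed in their content of normal brain tissue. In a fit with line and brain score the slope on the score passed for 5 of 9 genes (edgeR quasi-likelihood test, adjusted p under 0.05 over 16068 genes), where 46.8% of all genes passed, so the share of the 9 is close to the background. Hras rose with the score, 1 of 9 against 23.7% of all genes, and Nras, Rasa1, Rasa2 and Rasa3 fell, 4 of 9 against 23.1%. The score comes from the same libraries, so the slopes are descriptive.

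Rasa1 had the steepest slope, -0.59 log2 units per unit of score (SE 0.07, edgeR adjusted p = 0.000959), and Rasa2 followed at -0.54 (SE 0.09, adjusted p = 0.00290). The slope of Nras was -0.29 (SE 0.07, adjusted p = 0.0106) and that of Rasa3 -0.17 (SE 0.06, adjusted p = 0.0372). Hras went the other way, at 0.26 (SE 0.07, adjusted p = 0.0128). Rras (-0.10, SE 0.07), Nf1 (-0.16, SE 0.11), Sos1 (-0.17, SE 0.09) and Rasgrp1 (-0.02, SE 0.20) did not pass.

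Single tumours carried part of this. Without GSC1 replicate 2, the tumour with the lowest score, only Rasa1 still passed, with adjusted p of 0.114 for Hras, 0.0846 for Nras, 0.0572 for Rasa2 and 0.303 for Rasa3. Without GSC1 replicate 3 Hras (0.0672) and Rasa3 (0.189) did not pass, and Rasa3 was also lost without GSC1 replicate 4 (0.117) or GSC2 replicate 1 (0.0743).

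Proliferation genes were mostly lower where the score was higher, and the length trend followed the score only in part. The contrast between long and short transcripts was 0.64 in GSC2 replicate 2 and -0.70 in GSC2 replicate 3, at scores of 7.88 and 7.77. The mean log2 CPM of 6 proliferation genes was 6.96, 7.39, 4.56 and 5.09 in GSC1 replicates 1 to 4, against 7.21, 6.45 and 5.95 in GSC2 replicates 1 to 3. It was highest in GSC1 replicate 2, as were Rasa1 and Rasa2, and lowest in GSC1 replicate 3, as were both of these genes. Its part in the slopes was not tested. After an offset on transcript length per library the 5 slopes still passed, and Rras passed too, at -0.22 (adjusted p = 0.0171).

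**Figure D4:**
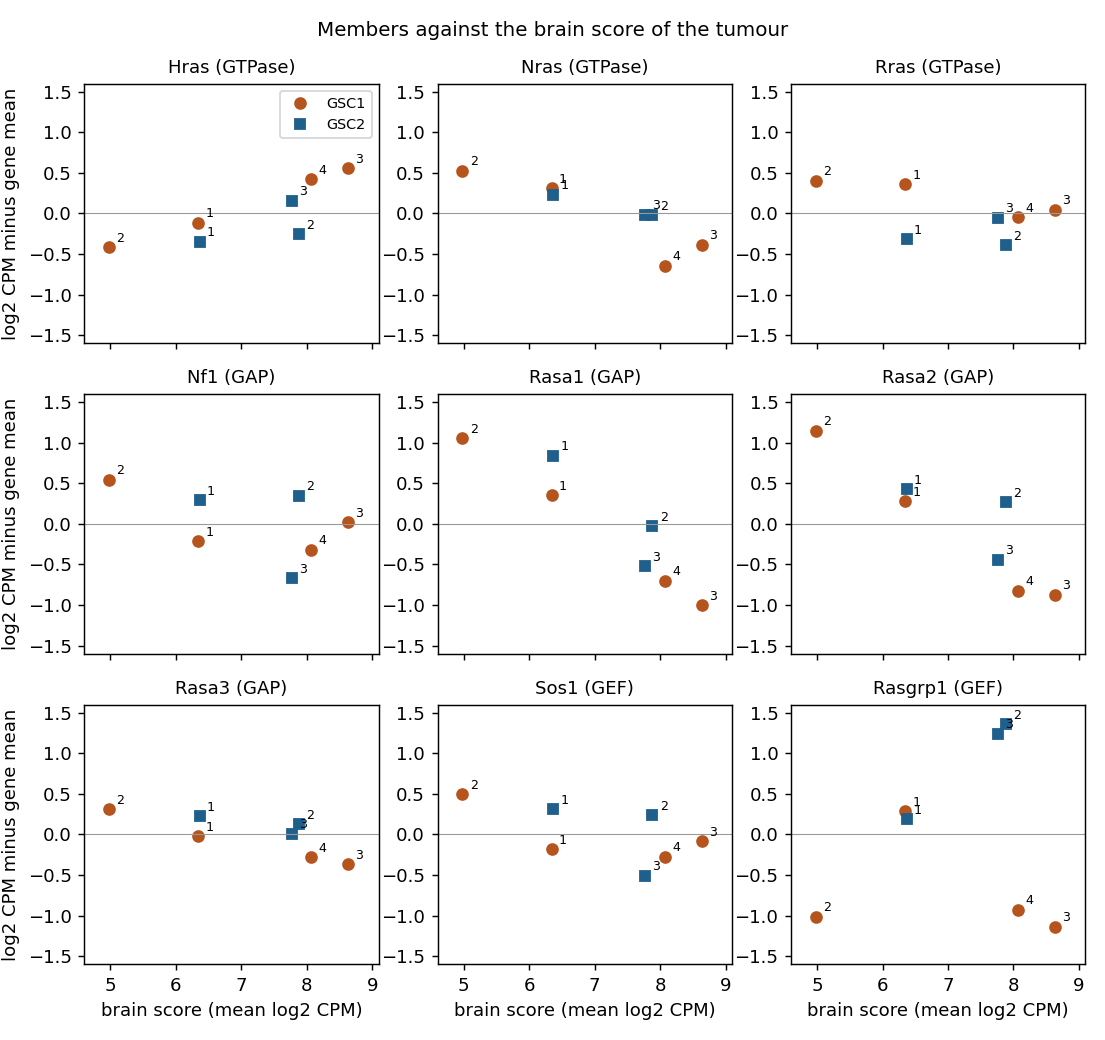
Log2 CPM of each gene minus its mean over the 7 tumours (y axis) against the brain score of the tumour (x axis, mean log2 CPM), for GSC1 (circles) and GSC2 (squares), numbered by replicate. Rasa1 and Rasa2 fall from left to right, Hras rises, and Rasgrp1 splits the tumours without following the score.

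At equal brain score none of the 9 differed between the lines (edgeR adjusted p under 0.05), where 0.585% of all genes did. An unadjusted p under 0.05 was found for Rasgrp1 and Rras, 2 of 9, where 16.7% of all genes had one. Rasgrp1 had a log2 fold change of -1.603 (SE 0.45, unadjusted p = 0.00689, adjusted p = 0.140), and Rras 0.41 (SE 0.17, unadjusted p = 0.0435, adjusted p = 0.284). For Nf1 the value was -0.07 (SE 0.27), with a 95% confidence interval from -0.69 to 0.54.

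The levels of the genes were set against each other per length, as TPM, a length-scaled share of the library, over the longest annotated transcript. Rras averaged 98.7 ± 28.5 TPM in GSC1 and 67.0 ± 12.02 TPM in GSC2, Rasa3 69.4 ± 24.3 and 75.7 ± 25.1 TPM, Hras 76.5 ± 13.2 and 59.9 ± 8.30 TPM, and Nras 66.2 ± 32.6 and 63.8 ± 20.9 TPM (SD, n = 4 and 3). Below these came Rasa1, with 58.2 ± 43.5 TPM in GSC1 and 57.7 ± 36.9 TPM in GSC2, and Rasgrp1, with 16.2 ± 10.4 and 44.7 ± 21.3 TPM. By the mean over all 7 tumours the lowest 3 were Nf1, with 22.1 ± 8.59 TPM in GSC1 and 22.5 ± 12.1 TPM in GSC2, Sos1, with 15.7 ± 5.89 and 16.2 ± 7.94 TPM, and Rasa2, with 15.4 ± 12.2 and 14.2 ± 7.03 TPM. The place of Rasgrp1 differed by tumour, since it lay below Nf1 in GSC1 replicates 2 to 4 and above it in GSC1 replicate 1 and in all 3 GSC2 tumours. The ranges of all neighbours in the order of their means over the 7 tumours overlapped. Only Nf1 and Sos1 kept their order in 7 of 7 tumours, with Nf1 1.23 to 1.48 times as high. The places of Hras and Nras depend on the transcript counted, since their shortest principal transcripts have 1199 and 831 bases, against 2828 and 4470 bases for the longest.

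Genes whose log2 CPM over the 7 tumours was most like that of a member were found among 11935 genes of at least 5 CPM. For Rasa1 they were Sirt1 and Nup155 (Pearson r = 0.999 and 0.998), and 926 genes had an r of at least 0.95. For Hras they were Ndufv1 and Hprt (0.994 and 0.993), with 306 such genes, and for Nras Rgs12 and Eri1 (0.991 and 0.991), with 194. Nf1 was closest to Fasn and to Sos1 (0.987 and 0.986), and 13 genes reached 0.95. Rasgrp1 was closest to Kalrn and Agap2 (0.953 and 0.947), and Kalrn alone reached 0.95. For Rasa2 the closest were Rad17 and Pogz, for Rasa3 Tor1aip2 and Wwtr1, for Rras Rnh1 and Timp1, and for Sos1 Nab1 and Nf1. With 7 tumours that share the brain score and length trend, these values describe likeness only.

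Beyond the 9, 66 other genes of the pathway were listed, and 65 were tested; the other, Eras, had no reads in any tumour. None of the 65 passed between the lines (edgeR adjusted p under 0.05), and 2 had an unadjusted p under 0.05, where 4.21% of all genes had one. The values of 6 did not overlap, where 5.58% of all genes did not. Of these 3 were higher and 3 lower in GSC1, where 2.53% and 3.05% of all genes were. Over the 65 the median log2 fold change was 0.04, against 0.03 over all genes tested. With the brain score 13 of the 65 rose, where 23.7% of all genes did, and 12 fell, where 23.1% did, so neither count exceeds the background.

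Among other Ras-like GTPases Rap2c, a relative that links to the cytoskeleton, had 63.2, 73.6, 64.2 and 52.8 CPM in the GSC1 tumours, against 141, 93.4 and 140 CPM in the GSC2 tumours. All GSC1 values lay below all GSC2 values (log2 fold change -0.98, edgeR unadjusted p = 0.00339, adjusted p = 0.618, and adjusted p = 0.0567 at equal brain score). Rras2, which encodes the close R-Ras relative TC21, had means of 38.0 ± 6.72 CPM in the GSC1 and 28.8 ± 0.957 CPM in the GSC2 tumours and did not overlap either (log2 fold change 0.40, adjusted p = 1.00). Of the 14 tested 4 rose with the brain score and 0 fell (23.7% and 23.1% of all genes), led by the neuronal GTPase genes Rit2 (slope 1.59, adjusted p = 0.000524) and Diras1 (slope 1.20, adjusted p = 0.000643). Rit2 had 10.5, 4.04, 222 and 151 CPM in GSC1 replicates 1 to 4, against 15.2, 56.3 and 30.8 CPM in GSC2 replicates 1 to 3.

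Among the other Ras GAPs and the SPRED genes, whose products bring neurofibromin to the membrane, none passed between the lines. The fold was negative in 8 of 9, where it was in 7437 of 16068 genes tested. Rasal1 averaged 4.86 ± 3.07 CPM in GSC1 and 8.87 ± 4.81 CPM in GSC2. With the brain score 5 of the 9 fell, where 23.1% of all genes did, and 0 rose, where 23.7% did, Spred2 (slope -0.43, adjusted p = 0.00307) and Rasal2 (slope -0.56, adjusted p = 0.00320) among them.

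Among the 6 other exchange factors 3 rose with the brain score, against 23.7% of all genes, and 0 fell, against 23.1%. Rasgrf1, a calcium-activated exchange factor of neurons, had 43.6, 22.1, 201 and 377 CPM in GSC1 replicates 1 to 4, against 48.0, 114 and 66.3 CPM in GSC2 replicates 1 to 3 (slope 1.05, adjusted p = 0.00353). Its highest tumours were GSC1 replicates 3 and 4, in which Rasgrp1 was low. Rasgrp1 was also low in GSC1 replicate 2, at 26.9 CPM, the tumour with the least Rasgrf1 of all. Hoxb5, a hindbrain and spinal cord gene, had 209 and 49.6 CPM in GSC1 replicates 3 and 4 and at most 0.0501 CPM in the others. Rasgrf2 had a slope of 0.76 (adjusted p = 0.00568), and Rasgrp3 averaged 11.9 ± 2.82 CPM in the GSC1 tumours and 17.3 ± 4.48 CPM in the GSC2 tumours.

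**Figure D5:**
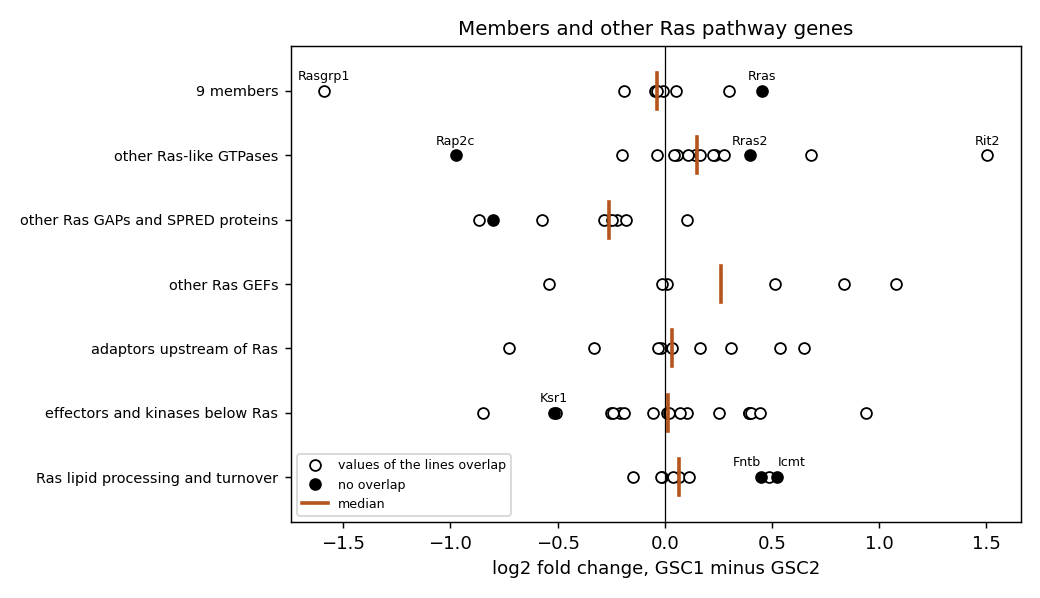
Log2 fold change, GSC1 minus GSC2 (x axis), of the 9 genes and of 65 other Ras pathway genes by list, 1 point a gene, filled where the values of the lines do not overlap, with the list median as a bar. The list medians lie between -0.26 and 0.26, and no gene passed the test between the lines.

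The adaptors upstream of Ras had no gene without overlap, where 5.58% of all genes had none. With the brain score 2 of 9 rose and 2 fell, close to the 23.7% and 23.1% of all genes. Shc1, which couples receptors to Grb2, fell (slope -0.44, edgeR adjusted p = 0.00169) and Frs3, an FGF receptor substrate gene, rose (slope 0.58, adjusted p = 0.00341). Between the lines the smallest p among them were those of Shc3, with 7.97 ± 2.33 CPM in GSC1 tumours and 13.2 ± 9.82 CPM in GSC2 tumours, and Shc2, with 7.90 ± 2.41 and 5.44 ± 2.52 CPM.

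Of the 18 effectors and kinases below Ras 1 rose and 5 fell with the brain score, beside 23.7% and 23.1% of all genes. Rin1, a Ras effector that acts on Rab5 and Abl, had a slope of -0.91 (edgeR adjusted p = 0.00197), and Rgl2, an exchange factor for Ral, one of -0.49 (adjusted p = 0.00326). Ksr1, the scaffold of Raf, MEK and ERK, had 18.4, 18.3, 18.0 and 19.4 CPM in the GSC1 tumours, against 23.0, 32.7 and 23.9 CPM in the GSC2 tumours, without overlap (log2 fold change -0.52, edgeR unadjusted p = 0.0502, adjusted p = 1.00). Rgl3 averaged 18.9 ± 10.4 CPM in GSC1 and 9.87 ± 2.25 CPM in GSC2.

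Of the 9 genes for lipid processing and turnover of Ras 3 rose with the brain score and 0 fell, set against 23.7% and 23.1% of all genes, with Zdhhc9 and Golga7, the palmitoyltransferase pair for Hras and Nras, among those that rose (slopes 0.38 and 0.39, edgeR adjusted p = 0.00235 and 0.00672). Icmt, which methylates the CAAX cysteine, had 73.6, 84.8, 75.9 and 104 CPM in the GSC1 tumours, against 51.9, 66.5 and 58.2 CPM in the GSC2 tumours. Fntb, the beta subunit gene of farnesyltransferase, had 30.98, 28.3, 42.1 and 33.1 CPM in GSC1, against 23.3, 25.6 and 24.96 CPM in GSC2. Both lay higher in GSC1 without overlap and did not pass (log2 fold change 0.52 for Icmt and 0.45 for Fntb, adjusted p = 1.00 for each).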

How the data were processed

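RNA of the 7 tumours was extracted with a Qiagen column kit and prepared with the NEBNext Ultra chemistry, as the labels' protocols say. The authors deposited unnormalised counts of reads for each Ensembl gene. Per the submitters' processing notes TopHat2 2.0.11 and HTSeq were used, and the notes list mm9 and dm3 as builds without their roles. How HTSeq handled strand is not given in the sources used here. The 5 summary lines of each table were left out. Symbols for 32897 of 37620 identifiers came from a separate list of gene names. Transcript lengths and coding sequences came from GENCODE M21 (GRCm38), a later build, so no gene coordinates are printed.

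The test was that of edgeR 4.0.16 under R 4.3.3 (filterByExpr, TMM factors, robust quasi-likelihood fit and test, Benjamini-Hochberg adjustment over 16068 genes, threshold 0.05), for GSC1 against GSC2 and for the slope on the brain score beside the line. Log2 CPM used a prior count of 2. Confidence intervals are the estimate with its SE and the degrees of freedom of the fit. All 9 genes passed the filter. Named pathway genes were the 2 of each list with the smallest p between the lines and the 2 with the smallest p for the score, and the 2 genes with the highest r for each member. Sox2, Hoxb5, Cd3e, Klrb1c and Ppp1r1b come from the marker lists and were chosen after their values were seen.

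The alternatives were DESeq2 1.42.0, RLE or upper-quartile factors, testing without a filter or above a mean of 5 CPM, limma-voom 3.58.1, a loess offset on transcript length, the brain score as a covariate, the replicate number as a block, the fit without the 3 libraries with fewer long transcripts, and each tumour left out. The forebrain score was added after seeing the data. The genes, lists and tests were chosen with earlier results of these data known. The series calls the tumours independent, and p-values measure the spread between them. No pair of libraries agreed within sampling noise (lowest chi-square 66.5 per degree of freedom). Fits were tested on counts simulated from the same models and the dispersions of these data, which does not check the length trend or the tissue content. The values of 1 gene of the pathway lists and 1 of the sequences are not reported here.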

Additional observations from a re-analysis of the deposited data

Results flagged for a closer look

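Rasgrp1 was flagged in the GSC1 tumours because a single tumour lay far from the other 3. GSC1 replicate 1 had 66.3 CPM, and the next highest GSC1 tumour had 28.6 CPM. The gap was 0.906 of the range of the 4 tumours, above Dixon's 95% critical value for 4 samples. Without GSC1 replicate 1 the log2 fold change between the lines was -2.04 (edgeR unadjusted p = 0.000981, adjusted p = 0.809). Chance flags about 1 in 20 such groups, and 32 genes were looked at.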

How the results depend on the processing

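No member passed between the lines under any alternative run. The number of genes called between the lines was 0 with edgeR, 1 without a filter, 192 with DESeq2, 1 with limma-voom, 94 with the brain score as a covariate, 200 with the length offset and the score together, and 55 without the 3 libraries with fewer long transcripts. It stayed 0 with each tumour left out. The number of genes that follow the score was 7519, and 3829 to 8022 with each tumour left out, lowest without GSC1 replicate 2. With a replicate block it was 1160, with 0 members among them, and 0 genes were called between the lines. The block fit with the score has nearly as many terms as tumours, so its lost calls say little about the slopes. Deviations of log2 CPM from the mean of the line had correlations of 0.58, -0.31 and 0.41 between same-numbered tumours. By these deviations 3 of 6 tumours correlated best with their own number. With so few tumours these values do not settle whether the numbers pair the samples.

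Of 171 alternative folds of the members 131 kept their direction and 40 did not; the cause was not tested. Nf1 turned positive with RLE factors (0.0253), without a filter (0.0053), above a mean of 5 CPM (0.0069), DESeq2 (0.0252), limma-voom (0.018), the length offset (0.22), the offset with the score (0.23) and the replicate block (0.13). Sos1 did so with the length offset (0.11), the offset with the score (0.11) and the block (0.064). Rasa2 turned negative with limma-voom (-0.14), the brain score (-0.37) and the offset with the score (-0.20). Nras and Rasa1 turned positive without the 3 libraries (0.32 and 0.28), with the block (0.086 and 0.029) and with the forebrain score (0.58 and 0.83), which also turned Hras (-0.18) and Rasa3 (0.068). With each tumour left out the folds ran from -0.25 to 0.16 for Nras, -0.27 to 0.16 for Nf1, -0.53 to 0.42 for Rasa1, -0.50 to 0.31 for Rasa2 and -0.25 to 0.11 for Sos1, and those of Hras, Rras, Rasa3 and Rasgrp1 kept their direction.

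Of 135 alternative slopes 113 kept direction and call, 9 turned, 12 lost the call and 1 gained it. The replicate block, whose fit has nearly as many terms as tumours, is not among the 135, and with it 0 members passed for the score. The slope of Rasgrp1 turned with upper-quartile factors (0.012), above a mean of 5 CPM (0.0072), limma-voom (0.031), the length offset (0.038) and no line term (0.28), and ran from -0.26 to 0.21 with each tumour left out; that of Nf1 turned with the length offset (0.034). The slope of Rasa3 also lost its call with no line term, without a filter, above a mean of 5 CPM and with upper-quartile factors (adjusted p 0.0601 to 0.107).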
